A study of Mus musculus with 12 samples.

Results

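Papillomas treated with camphor white oil were compared with epidermis treated with the same oil, in 6 of the 12 libraries of the series: 3 whose titles name papilloma and the oil, and 3 whose titles name epidermis and the oil. All mice were of the inbred strain FVB/NJ, and camphor white oil, a distillate of camphor tree wood, was given on the skin at 20%. Papillomas are benign, pre-malignant tumours of squamous epithelium. For the tumours, mice were shaved at 6 to 7 weeks of age, received 400 nmol of the carcinogen DMBA once, and after a rest received repeated doses of 10 nmol of the tumour promoter TPA. Oil treatment then lasted 6 weeks, after which each of 3 mice gave a pool of 4 like-sized tumours, homogenised whole. For epidermis, 5 shaved mice received 400 µL of the oil once, and epidermis was taken 24 h later by ammonium thiocyanate separation. The 3 samples with the best RNA integrity were sequenced, and the labels give neither the age of these mice nor whether each library is 1 mouse. The other 6 libraries are the same tissues under acetone vehicle, 3 each. Tissue, exposure time, DMBA and TPA, and the way the tissue was taken differ together between the oil groups and cannot be told apart.

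In normal skin, basal keratinocytes make keratins 5 and 14, and suprabasal cells switch to keratins 1 and 10 before they build a cornified envelope out of loricrin, filaggrin, small proline-rich (SPRR) and late cornified envelope (LCE) proteins. Injured or tumour-promoted epidermis makes the stress keratins 6 and 16, S100 alarmins and a different set of envelope precursors. Mouse papillomas raised with DMBA usually carry an activating mutation in the Hras gene, and resident T cells and Langerhans cells normally lie between the keratinocytes of mouse epidermis.

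Expression is given as FPKM, the density of sequenced fragments over a transcript, scaled by its length and by the depth of the library, in library order 1, 2 and 3. Differences are papilloma minus epidermis in log2(FPKM + 1), a scale that understates the change of weakly expressed genes, and tests are by limma with Benjamini-Hochberg adjustment over all genes tested. With 12690 genes tested, 8730 passed an adjusted p of 0.05, which is 68.8% of all genes, 3687 higher and 5043 lower in papilloma. Since a call by p alone was the rule and not the exception, counts below are of genes that also differed at least 2-fold: 1435 genes (11.3% of those tested) were that much higher and 2207 (17.4%) that much lower. In a list with members under the filter on low values, these counts cover only the members that passed, some of which could pass through 1 tissue alone. The median difference over all genes was -0.12, and the balance of directions moved with the scaling. After median-ratio scaling the median was -0.012, and the share of called genes that were higher rose from 42.2% to 48.4% (to 50.4% after quantile normalization). The 2-fold counts were then 1638 higher and 1979 lower (1709 and 1886 after quantile normalization).

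Recovered depth was 16.9 to 20.4 M fragments per library, and 11838 to 12271 genes reached an FPKM of 1. The first principal component held 89.9% of the variance and placed the epidermis libraries at -71.8, -65.0 and -74.6 and the papilloma libraries at 72.1, 67.0 and 72.3. Replicates correlated at 0.965 to 0.986 in epidermis and 0.985 to 0.990 in papilloma, over log2 values of genes. Papilloma library 3 stood apart in single genes, chosen here after their values were seen: Krt18, a simple-epithelial keratin, was at 0.847, 1.89 and 18.4 FPKM in the 3 papilloma libraries, and Pparg, a regulator of lipid genes, at 0.617, 0.649 and 24.5. Epidermis library 2 stood apart in hair shaft keratins, with Krt31 at 5.90, 77.6 and 0.450 FPKM. Each papilloma library is 1 mouse, and for epidermis p-values measure only the spread between samples, which may be technical.

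**Figure D1:**
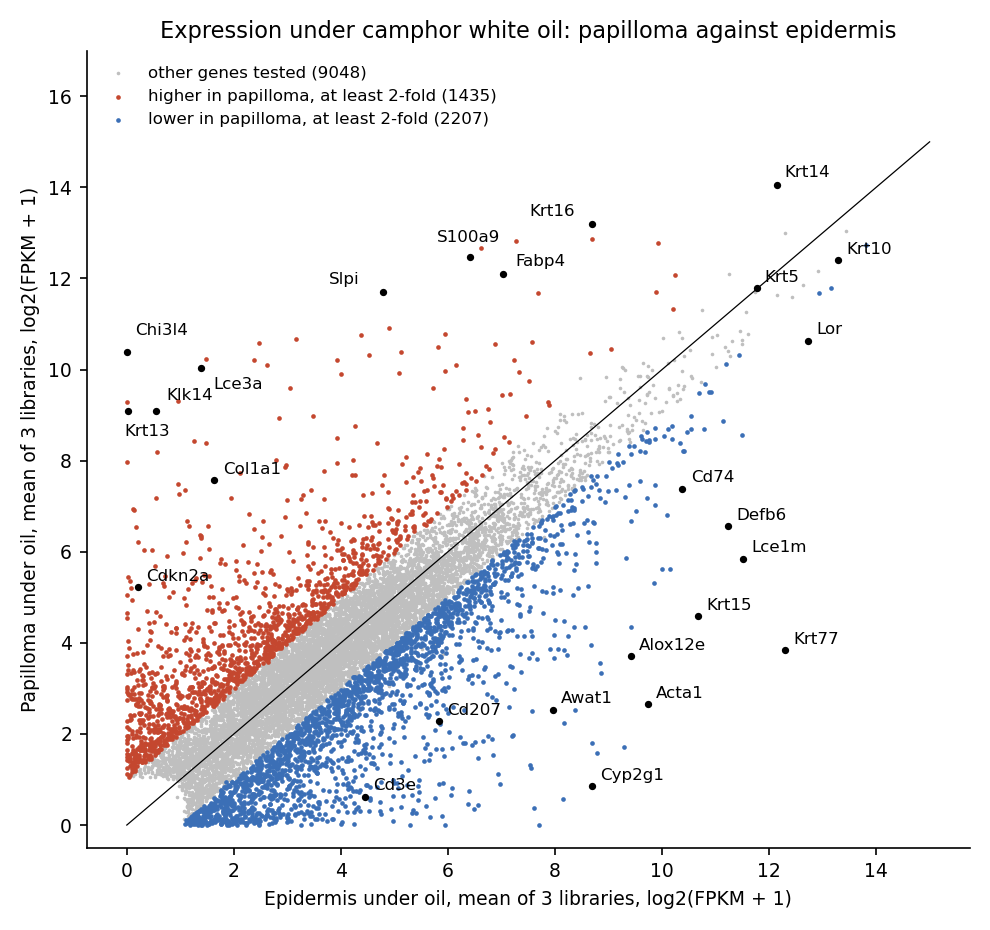
Mean expression of each tested gene in the 3 oil-treated epidermis libraries (horizontal axis) and the 3 oil-treated papilloma libraries (vertical axis), both as log2(FPKM + 1), with the line of equality. Red points are the 1435 genes called and at least 2-fold higher in papilloma, blue points the 2207 called and at least 2-fold lower, and black points are named genes, among which Krt14 stands above the line, Krt5 on it and Krt77 far below it.

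The naming rule takes the 10 largest called differences in each direction among genes whose groups did not overlap. It allows at most 2 genes per symbol stem, the letters before the first digit. Unnamed gene models, clone names and pseudogenes are left out. Genes with larger differences than some of those named, such as Lce3f, are therefore missing from it. By this rule papilloma led in Chi3l4, Sprr2k, Lce3b, Lce3a, Klk14, Krt13, Spink7, Rptn, Sprr2i and Slpi. Chi3l4, a chitinase-like secreted protein with a near-identical neighbour Chi3l3, was listed at 0 throughout epidermis and at 1390.4, 924 and 1709 FPKM in papilloma (adjusted p = 3.38e-08). Epidermis led in Krt77, Tnnc2, Acta1, Cyp2g1, Ckm, Pvalb, Tnnt3, Hamp2, Serpinb6e and Atp2a1. Of these, Tnnc2, Acta1, Ckm, Pvalb, Tnnt3 and Atp2a1 are genes of skeletal muscle. Cyp2g1, a cytochrome P450, had 414, 295 and 525 FPKM in epidermis and 0.817, 0.325 and 1.30 in papilloma (difference -7.83, SE 0.248, adjusted p = 1.64e-07). Every epidermis value of Cyp2g1 lay far above every papilloma value. Serpinb6e, an intracellular serine protease inhibitor of a family of close copies, had 169.7, 184 and 231 FPKM in epidermis and 0.224, 0.323 and 0.360 in papilloma (difference -7.22, adjusted p = 2.89e-08), and Hamp2, a hepcidin peptide, was at 138, 106 and 379 FPKM in epidermis and listed at 0 in every papilloma library.

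Stretches of the promoters of Sprr2k, Krt13, Rptn and Sprr2i are shown because, of the 10 genes that led in papilloma, these hold a match to one motif. The AP-1 core TGANTCA, which reads the same on both strands and is the element through which TPA is classically known to act, was searched in RefSeq promoters of build GRCm38.p6, from 250 bases before to 50 after each start. It was found in 7.81% of all 32851 promoters, in 4 of the 8 leading papilloma genes that have a promoter there and in 1 of the 8 leading epidermis genes that have one. The 7.81% counts single promoters, whereas a gene counts if any of its promoters holds a match, so these shares cannot be compared directly. Sprr2k and Sprr2i are also close copies, and no enrichment was tested. Each line below gives the stretch around the match that lies nearest the start, 5′ to 3′ on the gene's strand, with the match in capitals; a match is a run of letters and not a measured binding site.
Sprr2k promoter, chr3:92432370-92432436, plus strand: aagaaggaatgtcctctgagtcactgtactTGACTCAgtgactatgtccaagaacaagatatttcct
Krt13 promoter, chr11:100120578-100120641, minus strand: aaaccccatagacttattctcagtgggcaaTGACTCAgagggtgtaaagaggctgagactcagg
Rptn promoter, chr3:93393573-93393639, plus strand: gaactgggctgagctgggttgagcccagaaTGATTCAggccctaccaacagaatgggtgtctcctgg
Sprr2i promoter, chr3:92407768-92407834, plus strand: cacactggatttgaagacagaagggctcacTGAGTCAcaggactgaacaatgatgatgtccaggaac
The match in capitals lies 182 bases before the start in Sprr2k, 34 in Krt13, 96 in Rptn and 193 in Sprr2i. The Sprr2k stretch also holds a match farther from the start, left in lower case (tgagtca). Another Krt13 promoter, not shown, has a match 196 bases before its own start. Sprr2k and Krt13 were at or near 0 in the epidermis libraries, and Rptn reached 6.14 and Sprr2i 5.69 FPKM in epidermis library 2, their highest epidermis value.

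Basal keratinocyte genes were mostly higher in papilloma, and Krt15 was far lower. Of the 16 genes of the basal layer and its hemidesmosomes, 9 were higher and 1 was lower by at least 2-fold, and the median difference was 1.33 against -0.12 over all genes. Krt14, the keratin of basal cells (chromosome 11, 100064476 to 100068824, the locus the files give on mm9, as for all gene positions here other than promoters), stood at 5279, 4693 and 3559 FPKM in epidermis and 16762, 16850.2 and 17073 in papilloma, a 3.75-fold higher mean in papilloma (difference 1.92, SE 0.191, adjusted p = 3.99e-05). The papilloma libraries were nearly equal for it, and all lay above the epidermis libraries. Its partner Krt5 was at 4138, 3117 and 3191 FPKM in epidermis and 3142, 3401 and 4095 in papilloma, with overlapping groups and a difference of 0.03 (95% interval -0.37 to 0.43, adjusted p = 0.889). Krt15, a keratin of resting basal and follicle bulge cells (chromosome 11, 99993073 to 99997263), went the other way, at 1641, 1202 and 2064 FPKM in epidermis and 27.7, 20.9 and 20.6 in papilloma (difference -6.07, SE 0.201, adjusted p = 2.01e-07). Its epidermis mean was 70.9 times the papilloma mean. Among adhesion genes, the integrin Itgb1 differed by 2.06 (adjusted p = 1.20e-06) and Lama3, a laminin chain of the basement membrane, by 2.52. Col17a1, a hemidesmosome collagen, was 247 ± 36.6 FPKM in epidermis and 185 ± 28.4 in papilloma (SD, n = 3) (difference -0.41, adjusted p = 0.0337). Trp63, the master regulator of stratified epithelium, was 132 ± 36.3 FPKM in epidermis and 91.4 ± 4.17 in papilloma (SD, n = 3) (difference -0.49, adjusted p = 0.0317), a call lost after median-ratio scaling and after quantile normalization, at -0.38 (adjusted p = 0.0899) and -0.22 (adjusted p = 0.291), as was that of Col17a1 at -0.30 (adjusted p = 0.105) and -0.12 (adjusted p = 0.45). The call of Col17a1 was also lost without epidermis library 1 or 3 or papilloma library 1 or 2 (adjusted p from 0.0528 to 0.121), and that of Trp63 without any 1 papilloma library (adjusted p from 0.0581 to 0.0818). Of 18 genes of general keratinocyte identity, many of them also in the other lists, 3 were higher and 5 lower by at least 2-fold.

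Suprabasal genes split. Of 23 tested, 9 were higher and 4 lower by at least 2-fold (median 0.54). Krt77, a suprabasal keratin of interfollicular epidermis (chromosome 15, 101690287 to 101700049), was among the most abundant genes of epidermis and nearly gone from papilloma, at 4683, 5434 and 5042 FPKM in epidermis and 5.82, 21.5 and 12.9 in papilloma (difference -8.62, SE 0.362, adjusted p = 4.95e-07). Its vehicle difference was -6.15. Lor (loricrin, the bulk protein of the normal envelope) was at 6331, 6529 and 7509 FPKM in epidermis and 1934, 1533 and 1302 in papilloma (difference -2.11, adjusted p = 1.60e-05), and Flg2, filaggrin 2, was 238 ± 95.6 FPKM in epidermis and 13.6 ± 2.95 in papilloma (SD, n = 3) (difference -3.98, adjusted p = 4.48e-06). Flg itself is not analysed here. The pair Krt1 and Krt10 did not pass: Krt1 was at 2499, 2753 and 2051 FPKM in epidermis and 6114, 4773 and 2248 in papilloma (difference 0.74, 95% interval -0.039 to 1.52, adjusted p = 0.0823) and Krt10 at 9457, 10189.8 and 10279 FPKM in epidermis and 8028, 6199.9 and 2061 in papilloma (difference -1.09, -2.11 to -0.069, adjusted p = 0.0562). For both, papilloma library 3 was the lowest of the papilloma libraries. Krt1 passed without that library, at 1.16 (adjusted p = 0.00145), and in a fit of all 12 libraries (adjusted p = 0.0462). Krt10 passed without papilloma library 1, at -1.48 (adjusted p = 0.0152), in the fit of all 12 libraries (adjusted p = 0.0261), after quantile normalization (0.0283) and by limma-voom (0.0451). On the high side, Rptn (repetin, an envelope matrix protein) was at 3.59, 6.14 and 2.85 FPKM in epidermis and 1633, 859 and 1042 in papilloma (difference 7.82, adjusted p = 2.82e-07), and Tgm3, a transglutaminase that crosslinks the envelope, was 6.22 ± 2.92 FPKM in epidermis and 486 ± 87.6 in papilloma (SD, n = 3) (difference 6.13, adjusted p = 4.95e-07).

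Among envelope precursors, SPRR genes were higher and LCE genes moved both ways. Of 14 SPRR genes tested, 13 were higher in papilloma by at least 2-fold and none lower, with a median of 5.07 against 7.73 in the vehicle libraries, both including members listed at 0 in epidermis. Sprr2i stood at 5.68, 5.69 and 4.14 FPKM in epidermis and 1106, 987 and 1191 in papilloma (difference 7.48, adjusted p = 2.66e-08), and Sprr2k was listed at 0 in epidermis and at 564, 765 and 533 FPKM in papilloma (adjusted p = 2.46e-08). Sprr3, an envelope precursor of mucosal epithelia named after its values were seen, was listed at 0 in epidermis and at 85.7, 93.0 and 568 FPKM in papilloma, where library 3 was far the highest. The Sprr2 genes are close copies, so the level of any one depends on how shared reads were assigned. LCE genes moved in both directions. Lce3a was at 2.00, 2.17 and 0.663 FPKM in epidermis and 1129, 829.6 and 1182 in papilloma (difference 8.69, adjusted p = 1.16e-07), Lce3b differed by 8.90 and Lce3f by 7.63. Lce1m, which is expressed in normal epidermis, was at 1993, 3276 and 3509 FPKM in epidermis and 64.8, 57.0 and 48.0 in papilloma (difference -5.64, adjusted p = 3.86e-07), and Lce1a2 and Lce1l differed by -1.43 and -1.0. Over all 16 LCE genes tested 6 were higher and 4 lower by at least 2-fold. The lower count was 2 without papilloma library 3 and 2 without epidermis library 2. Lce1l lay at the 2-fold limit, and Lce1g, an Lce1 gene named after its values were seen, was higher, at 2.25.

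Stress keratins, S100 proteins and antimicrobial peptides were higher in papilloma as a group, with 17 of 24 higher and 2 lower by at least 2-fold and a median of 3.15. Krt16, the partner of the keratin 6 proteins, stood at 438, 606 and 194 FPKM in epidermis and 9654, 9069.9 and 9392 in papilloma (difference 4.65, SE 0.359, adjusted p = 9.81e-06); the papilloma libraries were close together while epidermis library 3 was lowest. Krt6a had no usable value in papilloma libraries 1 and 3, where its region was marked as too deep, and could not be tested. It was at 219, 262 and 119.6 FPKM in epidermis and at 9225 in papilloma library 2. Krt13, a keratin of mucosal epithelium whose appearance in mouse papillomas is a known marker of progression, was at 0.0510, 0 and 0 FPKM in epidermis and 179.6, 187 and 1254 in papilloma (difference 8.42, SE 0.651, adjusted p = 9.84e-06). Papilloma library 3 was far above the other two, and all 3 lay above epidermis. The simple-epithelial keratins Krt8 and Krt18 did not pass (adjusted p = 0.111 and 0.922). Krt8 differed by -0.84, and by -1.34 (adjusted p = 0.00365) without papilloma library 3 and -2.47 (adjusted p = 0.0435) by limma-voom, so its call turned on that library and on the method. S100a9, a calcium-binding alarmin made by stressed keratinocytes and neutrophils, was at 68.9, 79.9 and 104 FPKM in epidermis and 7541, 5156 and 4360.4 in papilloma (difference 6.04, adjusted p = 3.37e-07), and its partner S100a8 differed by 5.54. Slpi, a secreted inhibitor of leukocyte proteases, was at 22.8, 32.6 and 24.3 FPKM in epidermis and 3499, 2519 and 3916 in papilloma (difference 6.90, adjusted p = 1.11e-07), and Defb4, a beta-defensin, differed by 6.01. Lcn2, an iron-scavenging antimicrobial protein, was lower, 26.4 ± 10.7 FPKM in epidermis and 10.1 ± 2.62 in papilloma (SD, n = 3) (difference -1.24, adjusted p = 0.00796, and 0.0684 in the fit of all 12 libraries). Defb6, a beta-defensin outside this list, was also lower, at 2518, 2482 and 2202 FPKM in epidermis and 90.7, 100.2 and 91.1 in papilloma (difference -4.66, adjusted p = 5.76e-08).

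**Figure D2:**
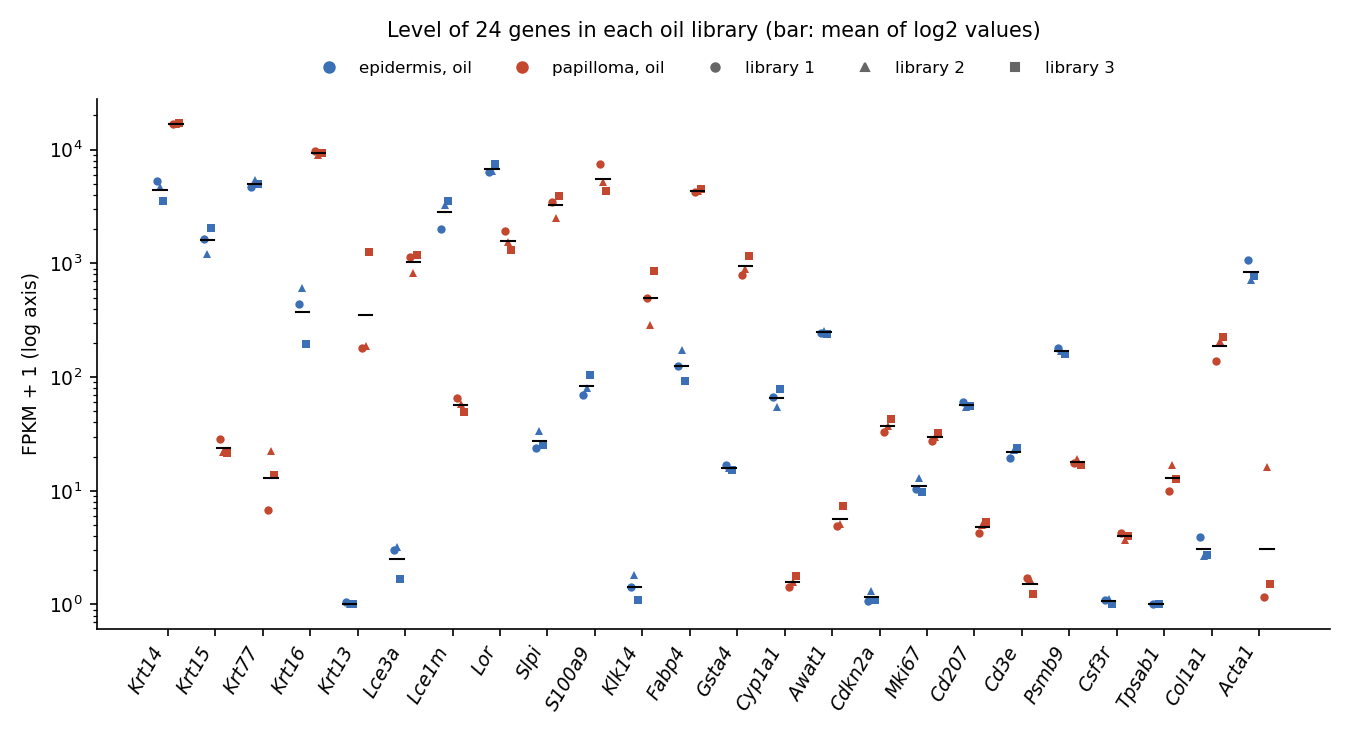
FPKM + 1 on a log axis for 24 named genes in each of the 6 oil libraries, with epidermis in blue, papilloma in red, a symbol for each library and a bar at the mean of the log2 values. Papilloma library 3 is the highest point for Krt13, at 1254 FPKM, and papilloma library 2 the highest papilloma point for the muscle gene Acta1, at 15.2 FPKM.

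Secreted proteases and their inhibitors were more often higher than lower. Among 32 kallikreins, SPINK inhibitors and serpins, 19 were higher and 4 lower by at least 2-fold (median 1.52). Klk14, a trypsin-like kallikrein that helps shed surface cells (chromosome 7, 50945788 to 50950905), stood at 0.425, 0.831 and 0.106 FPKM in epidermis and 492, 288 and 862 in papilloma (difference 8.45, adjusted p = 5.35e-07), and Klk13 and Klk12 differed by 6.54 and 6.61. Spink7, a Kazal-type protease inhibitor, was at 0.955, 1.87 and 0 FPKM in epidermis and 721, 797 and 384 in papilloma (difference 8.41, adjusted p = 7.96e-07), with papilloma library 3 the lowest of its group. Lower in papilloma were Serpinb7 at -3.80 and Cst6, the inhibitor cystatin M/E, at -2.04. Of 26 matched matrix metalloproteinases and related genes 21 passed the filter on low values, 12 of them higher and 2 lower by at least 2-fold. A gene could pass through papilloma alone, as Mmp10 did, so the filter may have favoured this direction. Mmp10, a stromelysin of wound-edge keratinocytes, was 0.0867 ± 0.0932 FPKM in epidermis and 12.5 ± 1.46 in papilloma (SD, n = 3) (difference 3.63, adjusted p = 2.91e-07), Plaur, the urokinase receptor, differed by 2.91, and Timp3, a metalloproteinase inhibitor, was 51.5 ± 19.2 FPKM in epidermis and 7.08 ± 1.85 in papilloma (SD, n = 3) (difference -2.66, adjusted p = 4.95e-05).

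Cell junction genes changed in composition. Among 25 genes of desmosomes and tight junctions 6 were higher and 8 lower by at least 2-fold (median 0.031). The desmosomal cadherins Dsg3 and Dsc2 were higher, with Dsg3 17.7 ± 1.53 FPKM in epidermis and 259 ± 62.3 in papilloma (SD, n = 3) (difference 3.77, adjusted p = 5.80e-07) and Dsc2 4.86. The claudins Cldn23 and Cldn3 differed by -4.47 and -3.67, and Cldn4 by -1.85. In barrier lipid synthesis 6 of 24 genes were higher and 4 lower by at least 2-fold, led by the fatty acid elongase Elovl6 at -3.51 and the ceramide desaturase Degs2 at 3.56.

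Mitotic genes were higher in papilloma, more often by p than by 2-fold: of 32, 28 passed as higher and 1 as lower, and 11 were at least 2-fold higher (median 0.67, against 1.90 in the vehicle libraries). Over all 12690 genes tested, 3687 passed as higher and 5043 as lower. Mki67, a marker of dividing cells, was at 9.45, 12 and 8.77 FPKM in epidermis and 26.5, 28.8 and 31.2 in papilloma (difference 1.44, SE 0.133, adjusted p = 2.60e-05), and the groups did not overlap. Bub1, a spindle checkpoint kinase, and Cenpe, a kinetochore motor, differed by 1.48 and 1.48, while Ttk, another checkpoint kinase, differed by -0.83. Of 38 DNA replication genes 4 were higher and 1 lower by at least 2-fold (2 lower without epidermis library 2). The ribonucleotide reductase subunits Rrm1 and Rrm2 differed by 1.33 and 1.27, and E2f1 by -1.02. Odc1, the polyamine enzyme induced by tumour promoters, was 23.2 ± 5.82 FPKM in epidermis and 70.1 ± 9.69 in papilloma (SD, n = 3) (difference 1.58, adjusted p = 9.50e-05).

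Among brakes on the cell cycle and p53 targets, 11 of 31 were higher and 7 lower by at least 2-fold. Cdkn2a, which encodes the tumour suppressors p16Ink4a and p19Arf, was close to undetected in epidermis and clear in every papilloma library, at 0.0783, 0.306 and 0.0877 FPKM in epidermis and 31.7, 35.8 and 41.9 in papilloma (difference 5.01, SE 0.143, adjusted p = 1.15e-07). Plk2 and Pmaip1, both p53 targets, differed by 2.26 and 1.88, and Sesn1, also a p53 target, by -1.82. The papilloma progression list, whose members are known from such tumours, had 17 of 28 higher and 3 lower by at least 2-fold (median 1.8); the lower count was 5 without papilloma library 3. Since the list was drawn from tumours of this kind, its direction is not independent evidence.

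RAS pathway feedback genes leaned upward while the Hras transcript itself was lower. Hras1 stood at 171, 206 and 164 FPKM in epidermis and 90.8, 97.9 and 102 in papilloma (difference -0.88, SE 0.113, adjusted p = 1.65e-04), with every papilloma value below every epidermis value; FPKM does not report a mutation. Of 27 feedback genes 9 were higher and 2 lower by at least 2-fold (median 0.57). Dusp6, an ERK phosphatase, was 20.3 ± 1.34 FPKM in epidermis and 76.5 ± 9.58 in papilloma (SD, n = 3) (difference 1.86, adjusted p = 3.27e-06), Spred3 differed by 2.77 and Ier3 by 1.75, while Spry1 and Dusp8, also negative regulators, differed by -1.32 and -1.34. Ligands of the EGF receptor family were among the higher genes, with Hbegf at 6.06, 15.0 and 6.48 FPKM in epidermis and 117, 102 and 124 in papilloma (difference 3.61, adjusted p = 1.09e-05), Nrg1 at 2.94 and Epgn at 2.93. The receptor gene Erbb2 and Lrig3, listed as a receptor regulator, were lower, at -0.86 and -1.64. Over the whole list of 17 ligands, receptors and regulators, 6 were higher and 4 lower by at least 2-fold.

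Transcription factors of squamous and follicle identity moved in both directions, with 8 of 32 higher and 7 lower by at least 2-fold. Pitx1, a homeodomain factor found in squamous tumours, was at 0.201, 0.0984 and 0.0752 FPKM in epidermis and 79.8, 79.3 and 118 in papilloma (difference 6.35, SE 0.166, adjusted p = 1.04e-07). Twist1, a factor of mesenchymal cells, differed by 2.98. Gata3 was at 153, 142 and 173 FPKM in epidermis and 17.6, 16.5 and 15.8 in papilloma (difference -3.15, adjusted p = 2.01e-07), and Pou2f3, a POU factor of suprabasal cells, and Tfap2b differed by -2.85 and -2.41. Follicle stem cell and Wnt genes were more often lower than higher. Of 33 matched 25 passed the filter on low values, 3 of them higher and 12 lower by at least 2-fold (median -0.60). A gene could pass through epidermis alone, so the filter may have favoured this direction. Wnt3 and Wnt7b differed by -3.28 and -2.57, whereas Wnt5a differed by 2.62. Cd34, a marker of bulge cells and of vessels, was 7.34 ± 1.55 FPKM in epidermis and 32.4 ± 4.02 in papilloma (SD, n = 3) (difference 2.01, adjusted p = 1.11e-05). In hair shaft and sheath genes 14 of 25 did not pass, beside the uneven hair keratins of epidermis library 2. Krt71, an inner root sheath keratin, was at 0.201, 3.45 and 0.0857 FPKM in epidermis and 21.4, 108 and 152 in papilloma (difference 5.33, adjusted p = 3.15e-04), with epidermis library 2 the highest of its group and papilloma library 1 the lowest of its own.

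**Figure D3:**
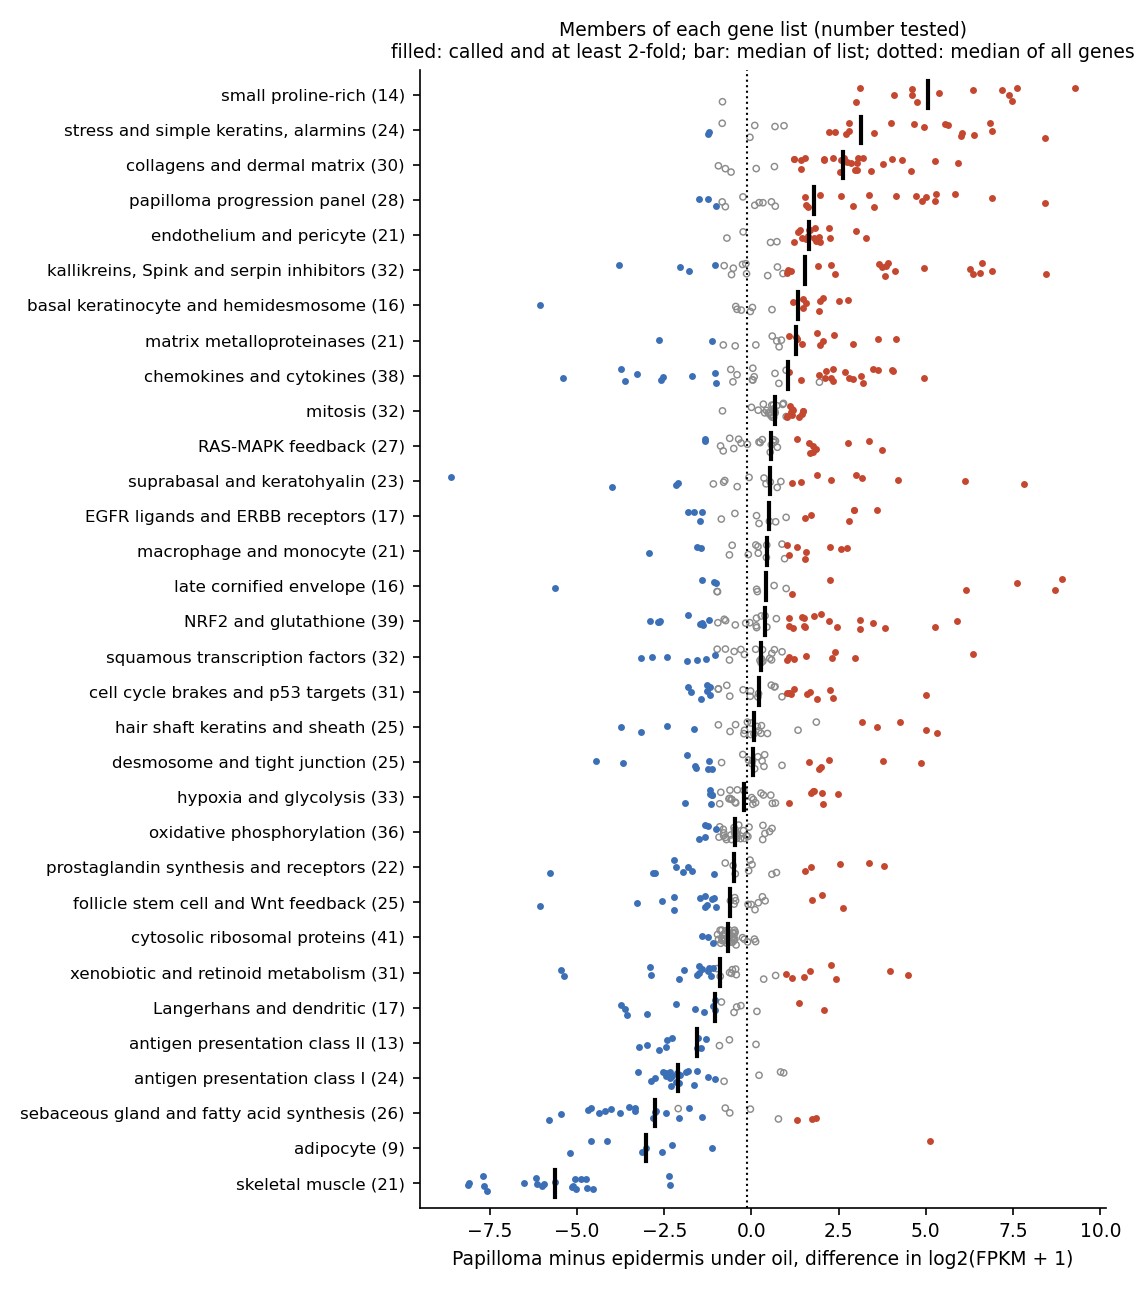
Difference in log2(FPKM + 1), papilloma minus epidermis under oil, for each tested member of gene lists ordered by median. Filled points are called and at least 2-fold (red higher, blue lower), open points are the others, bars are list medians and the dotted line is the median of all genes at -0.12; SPRR genes have the highest median at 5.07 and skeletal muscle genes the lowest at -5.62.

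Glutathione genes divided between strong rises and strong falls. Of 39 NRF2 and glutathione genes, 17 were higher and 9 lower by at least 2-fold (median 0.39). Gsta4, a glutathione transferase that clears lipid aldehydes, was at 16.0, 14.9 and 14.2 FPKM in epidermis and 797, 899.7 and 1172 in papilloma (difference 5.88, SE 0.145, adjusted p = 7.89e-08), and Gsto1 was 33.8 ± 4.9 FPKM in epidermis and 1335 ± 147 in papilloma (SD, n = 3) (difference 5.26). Nfe2l2, which encodes NRF2 itself, and its classical target Nqo1, both named after their values were seen, differed by 2.45 and 3.11. In the opposite direction, Gpx4, a lipid peroxidase, differed by -2.64 (adjusted p = 1.42e-06), Gstm5 by -2.63 and the aldehyde dehydrogenase Aldh3a1 by -2.92. GST genes of one class share sequence, so single values depend on read assignment. Xenobiotic and retinoid metabolism was lower on balance, with 8 of 31 higher and 14 lower by at least 2-fold (median -0.89). Cyp1a1, the classical gene induced through the AHR receptor, was at 66.1, 53.5 and 77.2 FPKM in epidermis and 0.419, 0.567 and 0.790 in papilloma (difference -5.38, adjusted p = 1.25e-07), and Cyp2f2 differed by -5.47. Crabp1, a retinoic acid binding protein, and Aldh1a3, an enzyme that makes retinoic acid, were higher, at 4.48 and 3.97.

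Genes of the sebaceous gland and of fatty acid synthesis were lower, 18 of 26 by at least 2-fold with 3 higher (median -2.76). Awat1, a wax synthase of sebocytes, was at 246, 255 and 239.7 FPKM in epidermis and 3.89, 4.10 and 6.38 in papilloma (difference -5.45, SE 0.157, adjusted p = 1.16e-07), Awat2 differed by -5.79 and Dgat2l6 by -4.67. For Awat1, every epidermis value lay far above every papilloma value. In bulk RNA fewer sebaceous cells and less RNA per cell cannot be told apart, here and for every cell type below. Fabp5, a fatty acid binding protein of keratinocytes, was higher, 1203 ± 128 FPKM in epidermis and 4333 ± 84.7 in papilloma (SD, n = 3) (difference 1.85). Fabp4, its relative from fat cells and vessels, was at 125, 171 and 91.6 FPKM in epidermis and 4267, 4305 and 4542 in papilloma (difference 5.11, adjusted p = 4.57e-07). In contrast, of 10 matched adipocyte genes 9 passed the filter on low values, and 8 of these were lower by at least 2-fold, with Adig at -4.59 and Lpl at -3.15. An adipocyte gene could pass through epidermis alone, so the filter may have favoured this direction. Cholesterol synthesis differed less: 1 of 21 was higher and 3 lower by at least 2-fold, with Dhcr7, a late enzyme of the pathway, at -1.49. Lipid mediators were uneven. Ptgs2, the inducible cyclooxygenase, was at 0.730, 0.909 and 1.06 FPKM in epidermis and 25.3, 17.2 and 14.7 in papilloma (difference 3.37, adjusted p = 2.06e-06), and Pla2g4e, a phospholipase, differed by 3.80. Alox12e, the epidermal lipoxygenase, was at 758, 753 and 543 FPKM in epidermis and 8.20, 9.80 and 18.3 in papilloma (difference -5.77, adjusted p = 7.25e-07), and Alox5 and Ltc4s of leukotriene synthesis differed by -2.77 and -2.83. Of all 22 prostaglandin and leukotriene genes 5 were higher and 9 lower by at least 2-fold.

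Ribosomal and respiratory genes differed by less than 2-fold in most cases. Of 41 cytosolic ribosomal protein genes 35 passed as lower and none as higher, with 3 at least 2-fold lower (5 without epidermis library 2). Their median was -0.67, and -0.55 after median-ratio scaling and -0.42 after quantile normalization. For oxidative phosphorylation 26 of 36 passed as lower and 5 as higher, and 5 were at least 2-fold lower, among them Cox4i1 at -1.51. The median of these genes was -0.46, and -0.35 after median-ratio scaling and -0.19 after quantile normalization. Over all 12690 genes tested, 5043 passed as lower and 3687 as higher. Hypoxia and glycolysis genes had 7 of 33 higher and 6 lower by at least 2-fold. Hif1a, the oxygen-regulated factor, was 21.8 ± 4.69 FPKM in epidermis and 92.7 ± 1.43 in papilloma (SD, n = 3) (difference 2.06, adjusted p = 5.72e-06), and Adm (adrenomedullin) differed by 2.47, while the glycolytic gene Aldoc and the kinase Pdk1 differed by -1.89 and -1.12.

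T cell receptor genes were far lower in papilloma. Of 32 matched T and NK cell genes 19 passed the filter on low values, and since a gene could pass through the higher group alone, no count of directions is given for them. Cd3e, of the T cell receptor complex, was at 18.4, 21.6 and 22.7 FPKM in epidermis and 0.704, 0.677 and 0.235 in papilloma (difference -3.84, SE 0.159, adjusted p = 4.79e-07), Trat1 differed by -2.66 and the chemokine Xcl1 by -4.50. Summed over Cd3e and Cd3g, T cell markers ranged from 65.3 to 90.7 FPKM in epidermis and from 0.733 to 2.06 in papilloma. Ptprc, carried by all leukocytes, ranged from 7.42 to 8.39 FPKM in epidermis and from 2.77 to 3.12 in papilloma. Of 22 matched Langerhans and dendritic cell genes 17 passed the filter, 10 of them lower and 2 higher by at least 2-fold (median -1.06). The lower count was 9 without papilloma library 3 and 8 without epidermis library 2. Here too a gene could pass through epidermis alone, so the filter may have favoured this direction. Cd207 (langerin, the defining protein of Langerhans cells) was at 59.3, 53.2 and 55.1 FPKM in epidermis and 3.23, 3.95 and 4.33 in papilloma (difference -3.56, SE 0.118, adjusted p = 2.01e-07), and Cd74, the invariant chain, was 1332 ± 169.7 FPKM in epidermis and 166 ± 15.5 in papilloma (SD, n = 3) (difference -2.99). Of 21 macrophage genes tested, 8 were higher and 3 lower by at least 2-fold. Arg1, an arginase of macrophages and keratinocytes, was 47.9 ± 16.2 FPKM in epidermis and 281 ± 16.1 in papilloma (SD, n = 3) (difference 2.57, adjusted p = 1.09e-05), Cd14 differed by 2.74 and Cd68 by 0.88, whereas Csf1r differed by -1.46 and Apoe by -2.93. Il34, a keratinocyte ligand of that receptor, was at 88.5, 85.0 and 108 FPKM in epidermis and 8.04, 8.85 and 9.06 in papilloma (difference -3.29, adjusted p = 2.84e-07).

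Several genes of neutrophils and mast cells were higher, at low levels. Of 19 matched neutrophil genes 10 passed the filter, and of 17 matched mast cell genes 11. Most of the mast cell genes could pass through papilloma alone, so directions are not counted for either list. Csf3r, the receptor for the neutrophil growth factor, was at 0.0890, 0.118 and 0.0166 FPKM in epidermis and 3.25, 2.70 and 2.97 in papilloma (difference 1.89, adjusted p = 2.52e-06). The decoy receptor Il1r2 was lower, at -2.88, and Mpo, also of the neutrophil list, passed as lower too. Tpsab1, a mast cell tryptase, was listed at 0 throughout epidermis and at 8.95, 15.8 and 11.8 FPKM in papilloma (adjusted p = 1.06e-06), and Cpa3, a mast cell carboxypeptidase, was 0.165 ± 0.0278 FPKM in epidermis and 6.43 ± 2.33 in papilloma (SD, n = 3) (difference 2.62). Chemokines and cytokines divided, 18 of 38 higher and 9 lower by at least 2-fold (median 1.04). Cxcl3, a chemokine that draws neutrophils, was at 0.219, 0.206 and 0.629 FPKM in epidermis and 19.7, 12 and 15.7 in papilloma (difference 3.63, adjusted p = 1.63e-06), and Cxcl5, of the same group, was listed at 0 in epidermis and at 5.78, 7.35 and 6.51 FPKM in papilloma. Ccl8, a monocyte chemokine, was 6.88 ± 1.84 FPKM in epidermis and 239.8 ± 43.8 in papilloma (SD, n = 3) (difference 4.95). Among the lower members, Cxcl14 differed by -2.53 and Ccl17, made by dendritic cells, by -3.75. Ccl27a, a keratinocyte chemokine that draws skin-homing T cells, named after its values were seen, was at 579, 406 and 391 FPKM in epidermis and 4.78, 11.2 and 16.4 in papilloma (difference -5.40).

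Antigen presentation genes were mostly lower. Of 24 class I genes 20 were lower and none higher by at least 2-fold (median -2.11), and of 13 class II genes 10 were lower and none higher (median -1.56). Psmb9, an immunoproteasome subunit (chromosome 17, 34319044 to 34324275), was at 181, 169 and 159 FPKM in epidermis and 16.7, 18.0 and 15.9 in papilloma (difference -3.26, SE 0.0958, adjusted p = 1.25e-07), and Psmb8 differed by -2.75. H2-K1, a class I heavy chain with close copies in its family, was 839 ± 68.4 FPKM in epidermis and 144 ± 11.7 in papilloma (SD, n = 3) (difference -2.54). The chaperones Calr and Pdia3, which also serve general protein folding, passed as higher, at 0.93 and 0.83. H2-DMa and H2-DMb2 of class II loading differed by -3.22 and -2.64. Of 34 matched interferon-response genes 22 passed the filter, 12 of them at least 2-fold lower and 1 higher, a count that leaves out 12 genes too low to test. Irf9 and Irgm2 differed by -1.21 and -1.96, while Oasl1 was higher, at 0.177, 0.173 and 0.0880 FPKM in epidermis and 12.5, 10.2 and 15.5 in papilloma (difference 3.57, adjusted p = 5.80e-07). The lower T cell and Langerhans cell markers given above moved with these lists, and their part in the result was not tested.

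**Figure D4:**
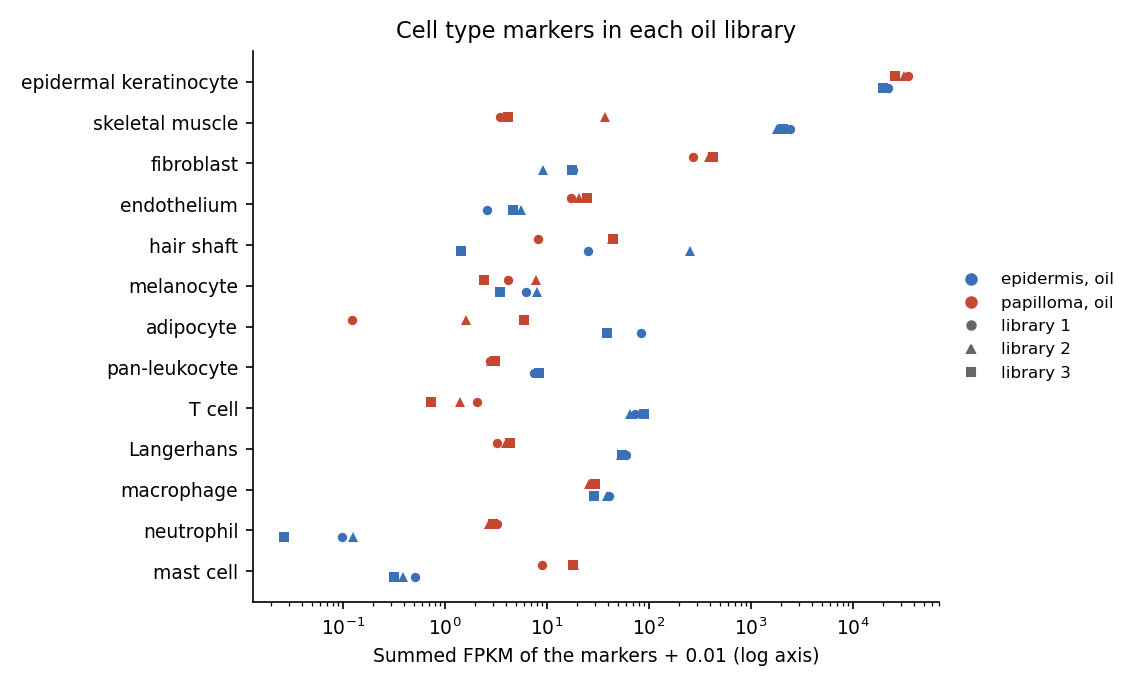
Summed FPKM of marker genes of 13 cell types in each of the 6 oil libraries, on a log axis after adding 0.01, with epidermis in blue and papilloma in red. Skeletal muscle markers lie between 1823 and 2458 FPKM in epidermis and between 3.47 and 37.2 in papilloma, and fibroblast markers lie the other way.

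Dermal matrix and vessel genes were higher in papilloma, which was homogenised whole, than in epidermis, which had been separated from dermis. Of 32 matched collagens and dermal matrix genes 30 passed the filter, 25 of them higher in papilloma by at least 2-fold (median 2.61). Of 26 matched endothelial and pericyte genes 21 passed it, 17 of them that much higher (median 1.66). In both lists a gene could pass through papilloma alone. The endothelial and pericyte list summed to 26.7 to 36.1 FPKM in epidermis and to 129 to 170 in papilloma. Without papilloma library 3, with the same genes tested, the dermal matrix list had 25 higher and 2 lower. Col1a1, the main fibrillar collagen of dermis, was at 2.94, 1.69 and 1.70 FPKM in epidermis and 139, 205 and 226 in papilloma (difference 5.93, SE 0.214, adjusted p = 2.92e-07), and Col1a2 differed by 5.25. Rgs5, a pericyte marker, and Mcam differed by 3.29 and 3.00. Fibroblast markers summed to 9.19 to 18.3 FPKM in epidermis, and to 273 to 431 in whole tumours. Keratinocyte markers were 19974 to 22139 FPKM in epidermis and 26231 to 34845 in papilloma, so both tissues expressed the keratinocyte genes their labels imply. Vim (vimentin, of stromal and immune cells) was lower, at 216, 207 and 167 FPKM in epidermis and 82.4, 103 and 121 in papilloma (difference -0.95, adjusted p = 8.17e-04), against the direction of the collagens. Of 22 matched skeletal muscle genes 21 passed the filter, and all of these were lower in papilloma (median -5.62). A muscle gene could pass through epidermis alone, so the filter may have favoured this direction, and the count is not evidence by itself. Acta1, skeletal actin, was at 1063, 715 and 781 FPKM in epidermis and 0.157, 15.2 and 0.519 in papilloma (difference -8.11, SE 0.858, adjusted p = 5.62e-05), and papilloma library 2 was the highest of its group for it. The muscle list made up 0.544% to 0.72% of all FPKM in epidermis and at most 0.0130% in papilloma. After all FPKM were rescaled without that list, 1417 genes were at least 2-fold higher and 2228 lower.

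A channel and a transporter were read whatever their values. Rhcg, an ammonium transporter, was listed at 0 throughout epidermis and at 2.07, 2.40 and 1.87 FPKM in papilloma (adjusted p = 4.89e-06). Trpv3, a warmth-sensitive channel that camphor opens, was at 2.20, 5.36 and 2.16 FPKM in epidermis and 14, 9.63 and 8.93 in papilloma (difference 1.54, SE 0.284, adjusted p = 0.00139). The epidermis libraries were all lower than the papilloma libraries for Trpv3, with library 2 the highest of them.

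The same tissue contrast in the 6 vehicle libraries, which share no library with the oil contrast, gave much the same genes. Of 12526 genes tested in both, 3602 were called at least 2-fold under oil and 3760 under vehicle, and 3170 under both, which is 88.0% of the oil calls and 84.3% of the vehicle calls. All but 1 of the shared genes had the same direction. The difference between the treatments was called for 98 of 13185 genes in a fit of all 12 libraries, 0.743% of those tested, 94 of them lower and 4 higher under oil. For 97 of the 98 the larger shift between vehicle and oil was in epidermis: group means differed by a median of 1.38 on the log2 scale there and 0.13 in papilloma. Rhcg was the exception, listed at 0 in all 6 epidermis libraries and at 5.23 ± 0.569 FPKM in vehicle papilloma against 2.11 ± 0.265 in oil papilloma (SD, n = 3 each). Among the 94 genes tested in both contrasts, 51 were higher in papilloma under both treatments and 21 lower under both, and 21 were lower under oil but higher under vehicle. Slpi is of the first kind, with a tissue difference of 6.90 under oil and 8.97 under vehicle (interaction -2.07, SE 0.320, adjusted p = 0.0121). Its mean was 6.56 ± 2.53 FPKM in vehicle epidermis, 26.6 ± 5.26 in oil epidermis, 3681 ± 422 in vehicle papilloma and 3311 ± 717 in oil papilloma (SD, n = 3 each). Defb6 is of the second kind, with -4.66 and -2.51 (interaction -2.15, adjusted p = 6.13e-04). Bcl2a1b, a pro-survival BCL2 relative with close copies, is of the third, with -1.48 under oil and 0.84 under vehicle (interaction -2.32, adjusted p = 0.00113). Interaction calls fell on 4 of 14 SPRR genes, 8 of 33 hypoxia and glycolysis genes, 7 of 32 mitotic genes and 5 of 24 stress keratin and alarmin genes, and on at most 3 genes in any other list; no list was tested against the others. The hypoxia list had a median of -0.22 under oil (0.066 after quantile normalization) and 0.76 under vehicle. The count of 98 moved with single libraries, from 34 without oil epidermis library 1 to 328 without vehicle epidermis library 3. It was 231 without oil epidermis library 3, 56 without oil epidermis library 2, 62 and 64 without vehicle epidermis libraries 1 and 2, 48 and 54 without oil papilloma libraries 2 and 3, and 55 and 57 without vehicle papilloma libraries 1 and 2. Muscle genes made up 2.26%, 3.20% and 0.700% of FPKM in the 3 vehicle epidermis libraries, and their part in the interaction was not tested.

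**Figure D5:**
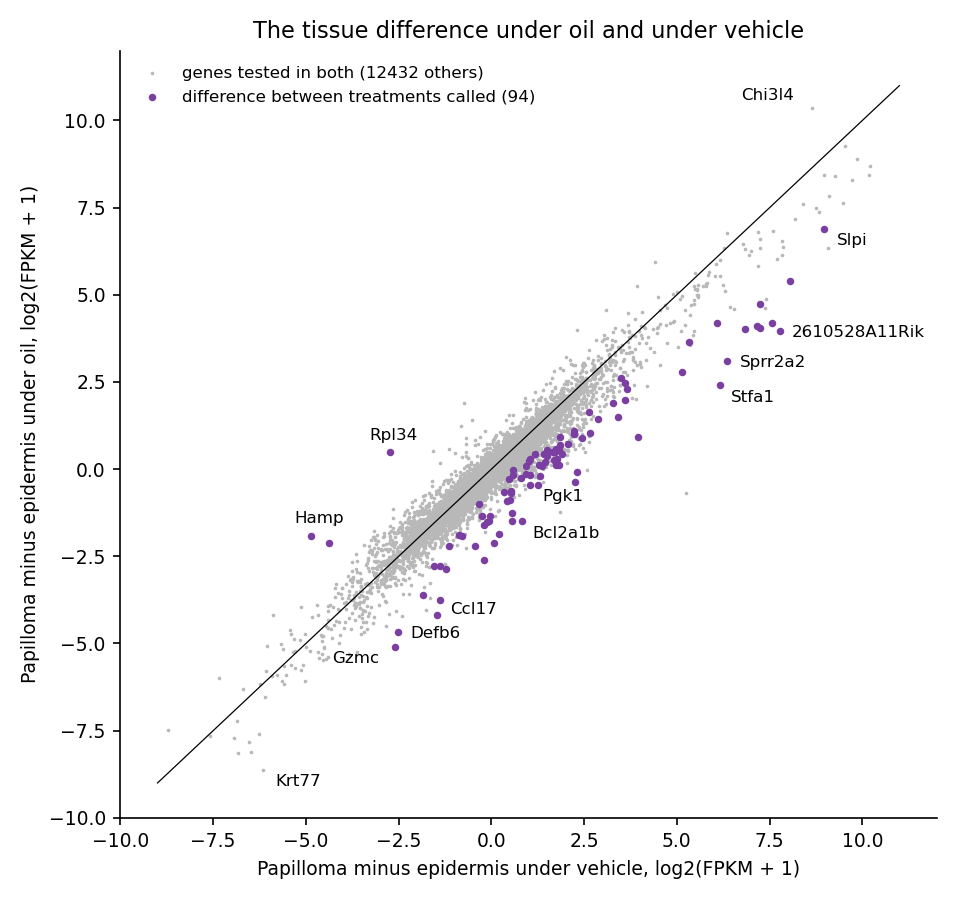
Papilloma minus epidermis in log2(FPKM + 1) under vehicle (horizontal axis) and under oil (vertical axis) for the 12526 genes tested in both contrasts, with the line of equality. Purple points are the 94 of these genes whose difference between treatments was called; most lie below the line, and Rpl34, Hamp and Gng13 lie above it.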

How the data were processed

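RNA-seq was deposited as 1 table per library of FPKM values per gene, which the authors made with TopHat2 2.0.4 and Cufflinks 2.0.2 on build mm9 after bcl2fastq 1.8.4, per the submitters' processing notes; libraries were poly-A selected, per the labels' protocols. Values whose Cufflinks status was not OK were treated as missing, and the 11 genes of the region marked as too deep had none in papilloma libraries 1 and 3. Rows of 1 symbol were summed (248 symbols). Genes that reached an FPKM of 1 in 3 or more of the 6 oil libraries, with 2 or more usable values per group, were tested with limma 3.58.1 (R 4.3.3) and an intensity trend on log2(FPKM + 1), 3 against 3. Calls used a Benjamini-Hochberg adjusted p of 0.05, with a difference of 1 on the log2 scale for the 2-fold counts. The difference between treatments was an interaction term over all 12 libraries. FPKM keeps no depth, so fragments were recovered from the deposited confidence limits; 67.9% to 69.2% of those under 500 came out whole within 0.02. The genes, gene lists and comparisons were chosen with earlier results of these data known. Named genes include the 10 largest differences in each direction with separate groups and a mean of at least 10 FPKM. For these, at most 2 genes per symbol stem were taken, and unnamed gene models, clone names and pseudogenes were left out. Up to 3 called members per list and direction by p, a panel read whatever its values, and the strongest interactions are also named. Those outside this are said to be so, apart from the markers Cd3g and Ptprc, the neighbour Chi3l3 and the uneven genes of single libraries. Alternatives tried were the pseudocount, the filter, other scalings, a replicate block, limma-voom, all 12 libraries in 1 fit and leaving out each library. Some genes are not reported here. The authors' own oil-against-vehicle tables were not used here.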

Additional observations from a re-analysis of the deposited data

Results flagged for a closer look

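Genes named above differed in their tissue difference between oil and vehicle, by the interaction term of limma with Benjamini-Hochberg adjustment over 13185 genes. Values are the difference under oil minus that under vehicle on the log2(FPKM + 1) scale. Defb6, a beta-defensin, was at -2.15 (adjusted p = 6.13e-04), and its mean was 774 ± 51.4 FPKM in vehicle epidermis and 2401 ± 173 in oil epidermis (SD, n = 3). Bcl2a1b, a survival gene, was at -2.32. Ccl17, a dendritic cell chemokine, was at -2.36 (adjusted p = 0.00113) with 3.20 ± 0.569 and 18.0 ± 4.38 FPKM in vehicle and oil epidermis (SD, n = 3); by limma-voom its adjusted p was 0.111. Slpi was at -2.07 (adjusted p = 0.0121). Rhcg was at -1.0 (adjusted p = 0.0121), a fitted value that rests on its papilloma libraries since it was listed at 0 in epidermis. Its call was lost with a pseudocount of 0.1 (adjusted p = 0.132) and by limma-voom (0.789).

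Some went the other way. Rpl34, a ribosomal protein gene, was at 3.21 (adjusted p = 0.00524), with 176 ± 35.6 FPKM in vehicle epidermis, 21.7 ± 10.1 in oil epidermis and 28.2 ± 1.14 in oil papilloma (SD, n = 3). It lies outside the list of 41 cytosolic ribosomal protein genes, none of which had an interaction call. Gng13, a G protein subunit, was at 2.27 (adjusted p = 0.0298), a call lost with a pseudocount of 0.1 (adjusted p = 0.473), by limma-voom (0.535), with no filter on low values (0.076) and without any 1 of 8 of the 12 libraries (0.0611 to 0.0889). Hamp, a hepcidin gene with the close copy Hamp2, was at 2.96 (adjusted p = 0.00819), with 31.3 ± 7.46 and 3.15 ± 2.32 FPKM in vehicle and oil epidermis (SD, n = 3) and listed at 0 in oil papilloma. Its call was lost with a pseudocount of 0.1 (adjusted p = 0.139) and by limma-voom (0.392).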

How the results depend on the processing

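The counts under oil held within 1.5 times under every alternative except 2: with a pseudocount of 3 the genes at least 2-fold higher fell to 938, and the 2-fold minimum itself took the calls to 3642, with 1435 higher and 2207 lower. No label says that replicate numbers pair the samples. Same-numbered deviations correlated at -0.056, 0.067 and -0.23, and differently numbered ones at -0.25 to 0.30. With 3 libraries per group these values cannot decide whether samples were paired. A fit with the replicate number as a block gave 8407 calls under oil and moved the interaction to 57, with 52 lower. The interaction count was 63 with no filter on low values (12 higher, 51 lower) and 49 by limma-voom on recovered fragments (46 lower). Its higher side was 2 and 11 with pseudocounts of 0.1 and 3, 10 after median-ratio scaling and 13 after quantile normalization. Leaving out 1 library in turn gave 34 to 328 interaction calls, with 2 to 139 higher and 32 to 212 lower. Single genes changed sign only where the difference was near 0 and never passed. Krt5 was at -0.20 after quantile normalization and ranged from -0.079 (without papilloma library 3) to 0.16 as each library was left out, with -0.044 and -0.027 without epidermis libraries 2 and 3. Krt18 was at -0.034 with a pseudocount of 0.1, at -0.12 by limma-voom, and ranged from -0.93 (without papilloma library 3) to 0.77 as each library was left out, with -0.37 without epidermis library 3. The hypoxia list's median was 0.066 after quantile normalization. Of the 153 genes whose tissue difference under oil is printed, Trp63, Col17a1 and Lcn2 lost their call under 15 fits in all, and Krt1, Krt10 and Krt8 gained one under 10. With the replicate block Krt1 and Krt10 passed (adjusted p = 0.0361 and 0.0457) and Col17a1 did not (0.0584). With no filter Trp63 and Col17a1 did not pass. Interaction calls of Gng13, Hamp, Rhcg and Ccl17 were lost under 16 fits in all and those of the other named genes under none. For all of these the cause was not tested. List counts without papilloma library 3 or epidermis library 2 and the rescaling without muscle genes were added after seeing the data. With 3 libraries per group an exact test of 1 gene cannot go below p = 0.1, and genes under an FPKM of 1 were mostly not tested.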

Other observations

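Several gene groups have not been described so far. Of 24 genes of the unfolded protein response 3 were higher and 2 lower in papilloma by at least 2-fold, of 20 Notch pathway genes 4 and 2, and of 24 immediate early and AP-1 genes 2 and 2. Among 17 genes of calcium channels and calcineurin signalling, 2 were higher and 5 lower by at least 2-fold. Over all genes tested these shares were 11.3% higher and 17.4% lower, and no list was tested against them. The B and plasma cell list had 10 matched genes, none of which passed the filter on low values. Of 10 matched melanocyte genes 6 passed it, with 1 lower and none higher by at least 2-fold. Without epidermis library 2, 1 was higher.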
